A study of Mus musculus with 9 samples.

Results

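Hearts of RKIP-transgenic mice (Tg-RKIP) were compared directly with hearts labelled as GRK2-transgenic (Tg-GRK2), without the non-transgenic controls. The comparison used 6 of the 9 cardiac RNA libraries of the series, chosen by their labels alone, with n = 3 libraries per line. All mice were male, 8 months old and of FVB/N background, so age, sex, strain and housing were shared. Tg-RKIP mice carry the transgene for the RAF kinase inhibitor protein, RKIP, under control of the alpha-myosin heavy chain promoter, which is active in heart muscle cells. The promoter and the form of the GRK2 transgene are not given in the sources used here. The labels number the hearts of a group 1 to 3, but do not say from which founders or litters they came, so p-values measure the spread between these libraries. The 3 libraries of non-transgenic FVB mice are quoted only as levels beside a result.

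RKIP, encoded by Pebp1, is a small cytosolic protein that restrains the RAF-MEK-ERK kinase cascade, which promotes survival and growth of heart muscle cells. When phosphorylated by protein kinase C, RKIP leaves this cascade and binds GRK2. This kinase of G protein-coupled receptors, encoded by Grk2, phosphorylates stimulated receptors such as the beta-adrenoceptors, whose signal then fades.

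The transgene of the Tg-RKIP line was visible at Pebp1 (chr5:117420719-117425690, GRCm39), whose level is given in TPM, i.e. reads divided by transcript length and scaled to the same total in each library. Pebp1 was present at 16370, 15970 and 16260 TPM in the Tg-RKIP libraries and at 327, 319 and 316 TPM in those labelled Tg-GRK2. The groups lay far apart, and the FVB mean was 325 TPM. The log2 fold change of Tg-RKIP over Tg-GRK2 was 4.88 (SE 0.018, adjusted p = 5.70e-31). This and all further adjusted p-values come from the quasi-likelihood test of edgeR, adjusted by the Benjamini-Hochberg method over the 15374 genes tested.

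Reads of the Tg-RKIP libraries also fell on a related gene. Pbp2 is a single-exon gene of the same family (chr6:135286125-135287403, GRCm39), with 71283, 90196 and 70425 reads in Tg-RKIP and 0 in each library labelled Tg-GRK2. Counted against a floor of 3 reads per library, Pbp2 was at least 21100-fold higher in Tg-RKIP. Within Pebp1, the transcript ENSMUST00000111973 (779 bases, 5 exons) held 142005, 180280 and 138285 reads in Tg-RKIP against 3, 0 and 0. The longer ENSMUST00000036951 (1240 bases, 4 exons) held 113710, 141373 and 113894 reads against 7665, 7188 and 8381. Both transcripts were thus higher in Tg-RKIP, and the shorter one was almost without reads in the libraries labelled Tg-GRK2.

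The sequences in which these features differ are shown because the assignment of reads to Pebp1 and Pbp2 depends on them. The coding sequences of both genes have 561 bases and share 458 of them (81.6%). Their longest identical run has 21 bases, and any 50 aligned coding bases hold 3 to 15 differences. The first 60 coding bases, from GENCODE M21 (build GRCm38), hold 17 differences, which are in capitals, 5′ to 3′:
Pebp1, ENSMUST00000036951: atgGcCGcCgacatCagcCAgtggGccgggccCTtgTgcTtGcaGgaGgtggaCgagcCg
Pbp2, ENSMUST00000050471: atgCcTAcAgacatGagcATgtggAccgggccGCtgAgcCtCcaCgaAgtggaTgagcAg
Of the 1230 stretches of 50 bases in the Pbp2 transcript, the length of a read, 0 occur in the longer Pebp1 transcript without a difference. ENSMUST00000111973 has an exon of 66 bases (chr5:117422129-117422194, GRCm39) that ENSMUST00000036951 and Pbp2 lack, shown as it stands in GENCODE M21:
Pebp1, extra exon: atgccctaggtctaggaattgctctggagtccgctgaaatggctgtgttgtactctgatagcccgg
How reads shared by similar sequences were divided is not given in the sources used here. The paper does not state the species or form of the RKIP transgene, so its sequence could not be compared with these. The levels of Pebp1 and Pbp2 in Tg-RKIP are therefore uncertain relative to each other.

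The gene targeted in the other line did not mark its libraries. Grk2 (chr19:4336029-4356250, GRCm39) was present at 37.8, 34.6 and 36.5 TPM in Tg-RKIP and at 26.4, 24.9 and 30.5 TPM in the libraries labelled Tg-GRK2, beside an FVB mean of 27.1 TPM. In TPM the libraries labelled Tg-GRK2 were thus the lower ones. By normalised counts the difference did not pass the test, with a log2 fold change of -0.04 (SE 0.036, adjusted p = 0.324). With reads scaled to library size only, the sign turned and Grk2 was called higher in Tg-RKIP, at 0.33. The transcript ENSMUST00000088737 (3376 bases, 21 exons) stood higher in the libraries labelled Tg-GRK2, with 503, 499 and 638 reads there and 233, 339 and 250 in Tg-RKIP. Another 2 short transcripts, of 261 and 624 bases, had a higher mean there as well, with reads in only some of the libraries. The transcript with the highest level, ENSMUST00000025791 (3182 bases, 22 exons), ran the other way, at 15.4 ± 0.693 TPM against 24.1 ± 0.941 TPM in Tg-RKIP (SD, n = 3). The label Tg-GRK2 is therefore used below as a label, and no direction is read as an effect of GRK2.

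**Figure D1:**
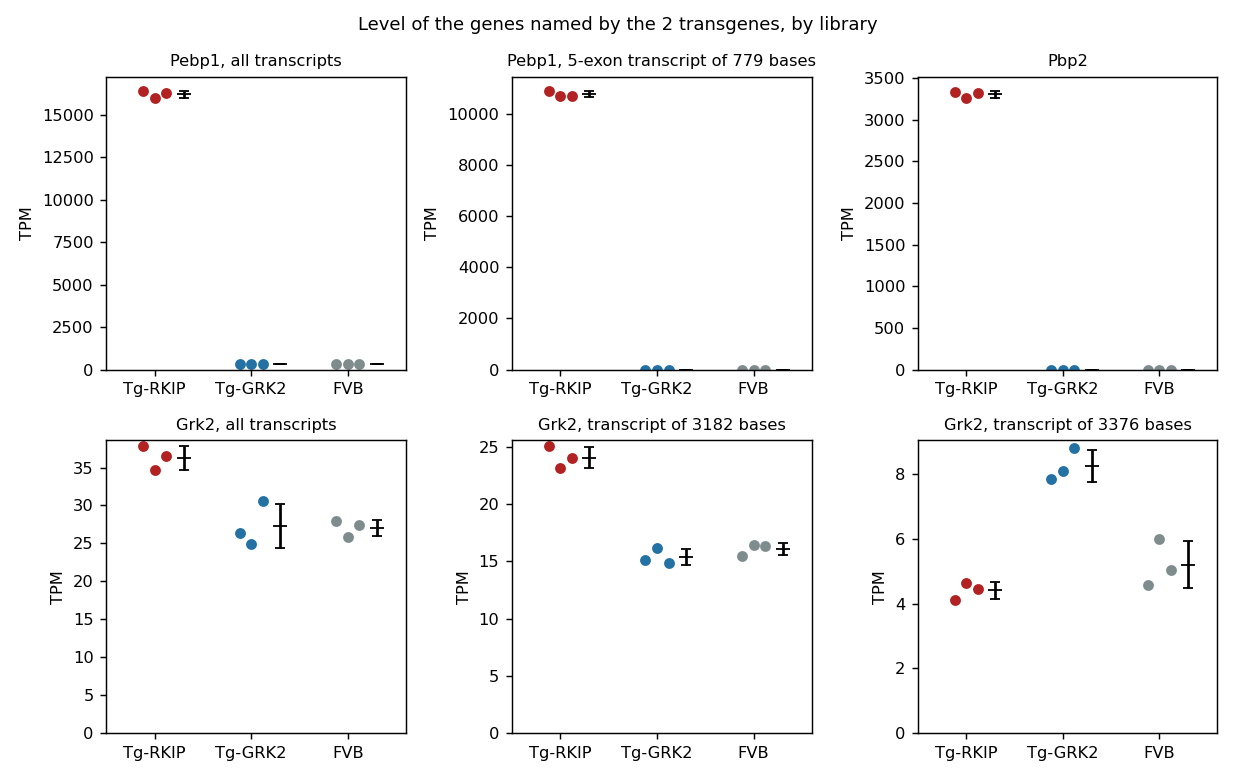
Levels of Pebp1, Pbp2 and Grk2 in TPM, 1 point per library, in the Tg-RKIP, Tg-GRK2 and FVB libraries. Black marks show the mean ± SD of 3 libraries, and the panels of single transcripts carry their length. Pebp1 and Pbp2 were high in the 3 Tg-RKIP libraries only, whereas Grk2 ran from 24.9 to 37.8 TPM over both transgenic groups.

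The depth of the 6 libraries ran from 25458108 to 33447654 reads on transcripts. Of the 15374 genes tested, 5803 (37.7%) were higher and 5702 (37.1%) lower in Tg-RKIP at an adjusted p under 0.05. The counts of list members below are to be read beside these shares. A difference of 1 or more on the log2 scale, i.e. 2-fold, was reached by 1519 genes (9.88%) that were higher and 1044 (6.79%) that were lower. The normalised levels of the groups did not overlap for 11783 genes (76.6%). The biological coefficient of variation was 3.07%, so very small differences passed the test. Scaled to library size only, 9618 genes were higher and 2825 lower, and the median log2 fold change of all genes moved from 0.02 to 0.39. By limma on log2(TPM + 0.1), the median was 0.40, with 8532 genes higher and 2239 lower. Fold changes below are by TMM normalisation, a scaling that centres most genes near 0, and where the median of a described list changes sign with the scaling, this is stated beside it.

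The groups also differed along transcript length and base composition. The median log2 fold change was 0.23 in the quintile of genes with the shortest transcripts (42 to 1480 bases) and -0.31 in the quintile with the longest (from 4699 bases). By GC content it ran from -0.20 in the lowest quintile (up to 44.2%) to 0.22 in the highest (from 55.8%). With these trends removed, an alternative added after the data had been seen, 5607 genes were higher and 5464 lower. The part of the trends in the results below was not tested beyond this alternative. The 50-base reads, single and primed by random hexamers, were counted per transcript, so that a change of transcript usage also shifts TPM against counts.

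The genes that were highest in Tg-RKIP relative to the other line after Pbp2 included several genes of cartilage, bone and secretion. Col2a1, the fibrillar collagen of cartilage, had 2593, 3291 and 2563 reads in Tg-RKIP against 1, 1 and 3, at least 769-fold higher. Col10a1, the collagen of hypertrophic cartilage, had 734, 869 and 678 reads against 0, 1 and 1, at least 208-fold higher. Ibsp, which encodes bone sialoprotein, had 720, 1010 and 756 reads against 1 in each library labelled Tg-GRK2, at least 225-fold higher. These 3 genes were thus nearly without reads outside the Tg-RKIP line, and their FVB means were under 0.03 TPM. Fgf23, the phosphate-regulating hormone of bone, was at least 38.6-fold higher. Spp1, which encodes osteopontin, was at 67.4, 69.7 and 66.5 TPM against 0.599, 0.778 and 1.09 TPM, a log2 fold change of 5.96 (SE 0.086, adjusted p = 1.13e-21). Edn3, a ligand of the endothelin receptors, was at 17.8, 17.8 and 17.4 TPM against 0.390, 0.694 and 0.609 TPM, a log2 fold change of 4.84 (SE 0.087). Cplx3, a complexin of neurotransmitter release, was at least 43.9-fold higher, with 156, 193 and 135 reads against 0 in each. Cdhr5, a cadherin of microvilli, was at least 47.2-fold higher, Psca, a surface antigen, at least 30.1-fold, and Syt13, a synaptotagmin, reached a log2 fold change of 5.40 (SE 0.22).

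The genes that were lowest in Tg-RKIP included muscle channels and enzymes of metabolism. Sbk3, a kinase of the SH3 domain binding family, was at 3.30, 3.69 and 3.61 TPM in Tg-RKIP against 46.3, 48.8 and 48.2 TPM, a log2 fold change of -4.07 (SE 0.045, adjusted p = 1.55e-23). Kcnv2, a modifying subunit of potassium channels, was at 0.456, 0.489 and 0.449 TPM against 6.75, 5.96 and 6.20 TPM. Both genes were chosen under a rule that required groups without overlap. Pdpr, the regulatory subunit of the phosphatase that switches pyruvate dehydrogenase on, was at 4.84, 4.58 and 4.65 TPM against 36.3, 36.6 and 35.4 TPM. Fbp2, the muscle fructose-bisphosphatase, had a log2 fold change of -3.26 (SE 0.13), and Nt5c1a, a cytosolic AMP nucleotidase, of -3.73 (SE 0.12). Clcn1, the chloride channel of skeletal muscle, was at 0.372, 0.0923 and 0.208 TPM against 3.59, 2.69 and 2.31 TPM. The largest decreases were those of Tmprss13, a membrane serine protease, with a log2 fold change of -5.59 (SE 0.21), and of Ptchd3, a patched-related membrane protein, with -5.17 (SE 0.26). Tmprss4, Mrgprh and the gene 9930111J21Rik1 were lower by between 3.58 and 3.65 on the log2 scale, at levels under 5 TPM.

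**Figure D2:**
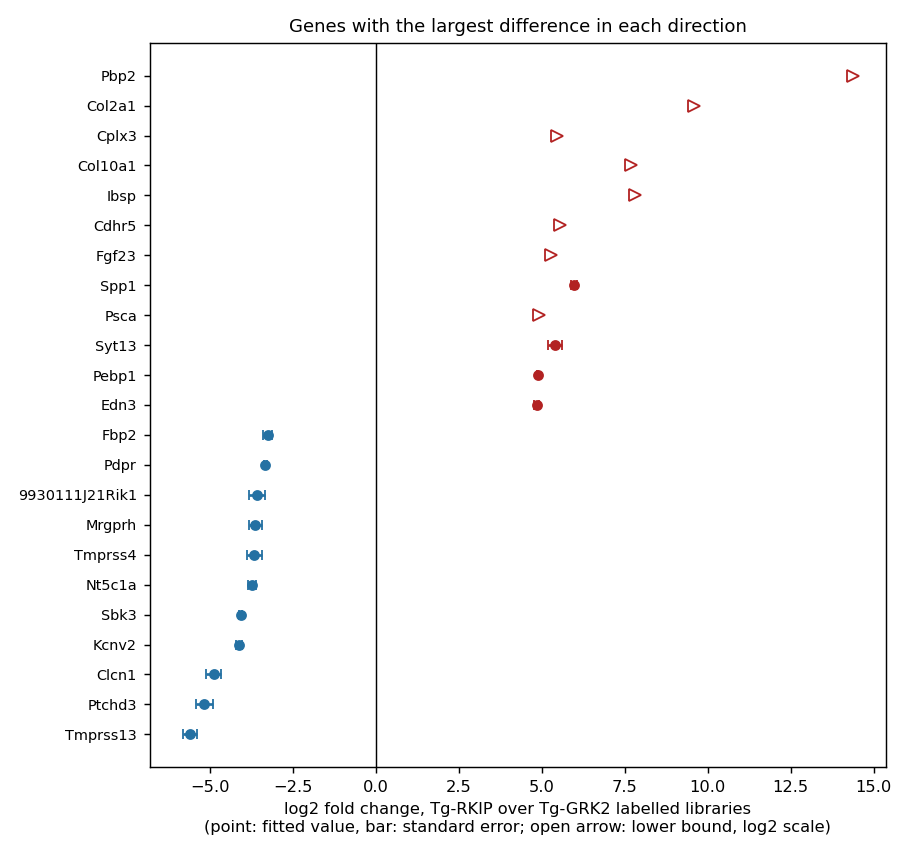
Log2 fold change Tg-RKIP over Tg-GRK2 of the 12 genes with the highest and 11 of the 12 with the lowest values, with error bars of 1 SE. Genes are ordered by fitted value, and those at or under 3 reads in every library labelled Tg-GRK2 are drawn as open arrows at the lower bound computed against 3 reads per library.

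The natriuretic peptide genes Nppa and Nppb were higher in Tg-RKIP, although the list of their system was divided. Nppa, encoding the atrial natriuretic peptide, was at 19470, 18930 and 19250 TPM in Tg-RKIP against 4262, 4256 and 4242 TPM, a log2 fold change of 1.80 (SE 0.012, adjusted p = 9.58e-27). Nppb, encoding the B-type peptide, was at 1555, 1570 and 1584 TPM against 452, 475 and 456 TPM, a log2 fold change of 1.39 (SE 0.019). Both lay well above the FVB means of 3898 and 411 TPM, while the libraries labelled Tg-GRK2 lay close to these. Corin, the protease that activates the peptides, was lower, at 51.9, 51.6 and 50.9 TPM against 84.4, 86.5 and 84.6 TPM. Mme, which encodes the peptide-degrading neprilysin, was lower by 1.92 on the log2 scale (SE 0.053). In all, 4 of the 8 tested genes of the natriuretic peptide system were higher and 4 lower, beside 37.7% and 37.1% of all genes.

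Among the thin filament genes, 6 of 11 were higher and 3 lower, beside 37.7% and 37.1% of all genes. Acta1, the skeletal muscle actin, was at 3603, 3512 and 3621 TPM in Tg-RKIP against 457, 467 and 471 TPM, a log2 fold change of 2.57 (SE 0.019, adjusted p = 2.29e-26). Tnnt1, the slow skeletal troponin T, was at 125, 124 and 122 TPM against 15.5, 16.4 and 13.8 TPM, with a log2 fold change of 2.64. Both genes had no overlap between groups, as did 76.6% of all genes, and an FVB mean near that of the libraries labelled Tg-GRK2. The median of the list was 0.05 and turned to -0.15 with the length and GC trends removed.

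Among the thick filament genes, 4 of 11 were higher and 7 lower, beside 37.7% and 37.1% of all genes. Their median of -0.32 turned to 0.05 with library-size scaling and to 0.23 by TPM. Myh7, the slow beta-myosin heavy chain, was at 4120, 4018 and 4111 TPM against 1728, 1781 and 1770 TPM, with a log2 fold change of 0.97 (SE 0.012, adjusted p = 1.16e-22). Myl4, the atrial essential light chain, was at 2565, 2459 and 2571 TPM against 1173, 1229 and 1213 TPM, whereas Myl7, the atrial regulatory light chain, was at 344, 381 and 383 TPM against 700.3, 769.6 and 764 TPM. The pair of atrial light chains thus moved in opposite directions, by 0.67 and -1.39 on the log2 scale. Myl2, the ventricular regulatory light chain, was lower by 0.61.

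Myh6, the alpha-myosin heavy chain, is the gene from which the promoter of the RKIP transgene comes. By normalised counts, it fell by 1.48 on the log2 scale (SE 0.0083, adjusted p = 5.88e-28), while its TPM sum was only slightly lower, at 6484 ± 48.0 against 7724 ± 134 TPM. The longer transcripts differed in direction. ENSMUST00000226297 (6008 bases) held 210112, 274042 and 193330 reads in Tg-RKIP against 650246, 639253 and 733276. ENSMUST00000081857 (6113 bases) held 44793, 54638 and 50720 reads against 26408, 31767 and 37308. The short transcript ENSMUST00000228731 (542 bases) was also higher in Tg-RKIP, with 36227, 45778 and 36278 reads against 16980, 17144 and 20033. The short transcript weighs more in TPM than in reads, so the size of the change in Myh6 depends on the scale. The transcript ENSMUST00000124930 (411 bases) had 41, 48 and 33 reads in Tg-RKIP and 0 in every library labelled Tg-GRK2 and in FVB.

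Among the genes of titin, the Z-disc and the stretch response, 7 of 16 were higher and 8 lower. The shares over all genes were 37.7% and 37.1%. The median of the list was -0.03 and turned to 0.34 with library-size scaling. Ankrd1, a stretch-induced ankyrin repeat protein, was at 6783, 6767 and 6785 TPM against 2104, 2181 and 2154 TPM, a log2 fold change of 1.28 (SE 0.013). Synpo2l, a Z-disc protein, was higher by 1.44 on the log2 scale, and most of its reads in Tg-RKIP (11811, 15214 and 11427) lay on the transcript ENSMUST00000119483, with 1495, 1340 and 1598 there in the other line. Fhl2, a LIM protein that binds titin, was at 277, 273 and 280.5 TPM against 1011, 1025 and 995 TPM, a log2 fold change of -2.23 (SE 0.019, adjusted p = 3.88e-25). Ttn, the giant spring of the sarcomere, was lower by 1.44. Of the 10 creatine and adenylate kinases, 6 were lower and 4 higher, with a median of -0.17 that turned to 0.20 with library-size scaling and to 0.28 by TPM, where 6 were higher and 4 lower. The largest change was that of Ckmt1, the ubiquitous mitochondrial creatine kinase, at 21.1 ± 2.99 TPM against 1.96 ± 0.453 TPM (SD, n = 3). Ckb, the brain-type creatine kinase, was higher by 1.03, and Ckm, the muscle-type enzyme, lower by 0.55. Whether reads of Ckmt1 were shared with similar sequences was not tested.

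Calcium cycling genes were lower in Tg-RKIP in 13 of 14 cases and higher in 1, with a median log2 fold change of -0.76. Ryr2, the calcium release channel of the sarcoplasmic reticulum, was at 61.3, 58.9 and 54.7 TPM in Tg-RKIP against 287, 288 and 285 TPM, a log2 fold change of -2.46 (SE 0.017, adjusted p = 1.09e-26). Atp2a2, the calcium pump SERCA2, was at 2721, 2715 and 2644 TPM against 5804, 5855 and 5718 TPM, a log2 fold change of -1.46 (SE 0.0093). Pln, the inhibitor of that pump, was at 2238, 2266 and 2234 TPM against 4828, 4763 and 4696 TPM, a log2 fold change of -1.31. Pump and inhibitor were lower together. The list's summed level was 7063 to 7214 TPM in Tg-RKIP, 13120 to 13310 TPM in the libraries labelled Tg-GRK2 and 11910 to 12150 TPM in FVB.

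Potassium channel genes were lower in 14 of 15 cases and higher in 0, with a median of -1.01. Kcnd2, a channel of the transient outward current, was at 5.60, 5.48 and 5.61 TPM against 16.3, 17.3 and 17.4 TPM, a log2 fold change of -1.99 (SE 0.039). Kcnj3, a subunit of the acetylcholine-gated channel, was lower by 1.67, and Abcc9, the sulphonylurea receptor of the ATP-sensitive channel, by 1.61. Of the sodium, calcium and pacemaker channels, 8 of 11 were lower and 2 higher. Hcn4, the pacemaker channel, was at 0.977, 0.876 and 0.957 TPM against 4.08, 3.84 and 3.55 TPM. Cacna1g, a T-type calcium channel, was lower by 2.08, but missed the threshold when only its most abundant transcript was counted.

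Of the intercalated disc genes, which join heart muscle cells to each other, 10 of 12 were lower and 2 higher, with a median of -0.62. Dsg2, a desmosomal cadherin, was at 7.06, 7.17 and 6.78 TPM against 20.2, 21.3 and 21.2 TPM, a log2 fold change of -1.95 (SE 0.035). Gja5, the gap junction protein connexin 40, was lower by 1.46, Ctnna3, a catenin of the disc, by 1.13, and Dsp, the desmoplakin, by 0.68. The list's summed TPM was close in both lines, at 1021 to 1030 in Tg-RKIP libraries and 1010 to 1022 in those labelled Tg-GRK2, so the lower values of its members were not matched by a lower sum. Cardiac transcription factors were lower in 13 of 17 cases and higher in 3, with a median of -0.39 that shrank to -0.01 with library-size scaling. Mef2a was lower by 1.15 on the log2 scale (SE 0.023).

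Heart muscle is fuelled mainly by the oxidation of fatty acids in mitochondria, and the genes of this process were lower in Tg-RKIP. Of the 25 tested genes of fatty acid oxidation, 22 were lower and 2 higher, with a median of -0.99, which stayed negative with library-size scaling, by TPM and with the trends removed. Acsl1, which activates long-chain fatty acids, was at 167, 165 and 168 TPM against 382, 392 and 386 TPM, a log2 fold change of -1.59 (SE 0.018, adjusted p = 2.99e-23). Fabp3, the fatty acid carrier of heart muscle, was at 3475, 3471 and 3477 TPM against 4105, 4164 and 4157 TPM, a log2 fold change of -0.63. Ucp3, a mitochondrial uncoupling protein, was lower by 1.76, and Acot1, an acyl-CoA thioesterase that is uncertain because of near-identical copies, by 1.54. Ppara, the nuclear receptor that drives these genes, was at 3.38, 4.06 and 3.40 TPM against 16.9, 15.3 and 16.0 TPM, a log2 fold change of -2.50 (SE 0.062, adjusted p = 4.65e-18). Its coactivator Ppargc1a was at 17.2, 15.6 and 16.1 TPM against 26.9, 27.1 and 27.4 TPM. Regulators and enzymes were lower together.

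All 14 tested genes of the tricarboxylic acid cycle were lower, with a median of -1.04. Dld, a shared subunit of the dehydrogenase complexes, was at 161, 166 and 161 TPM against 356, 368 and 364 TPM, a log2 fold change of -1.46 (SE 0.019). Idh3b and Suclg2, subunits of isocitrate dehydrogenase and succinyl-CoA ligase, were lower by 1.30 and 1.38, and Mdh2, the mitochondrial malate dehydrogenase, by 0.65. Of the 24 genes of glycolysis and pyruvate oxidation, 16 were lower and 8 higher. Pfkfb1 and Pfkfb2 set the level of an activator of phosphofructokinase. Pfkfb1 was lower by 2.28 on the log2 scale (SE 0.089), and Pfkfb2 was at 11.9, 10.4 and 11.1 TPM against 27.5, 26.0 and 28.9 TPM. Pdha1, the catalytic subunit of pyruvate dehydrogenase, was at 389, 397 and 383 TPM against 739, 747 and 747 TPM, a log2 fold change of -1.31 (SE 0.017).

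Mitochondrial genes took 11.65% ± 0.156 of the reads in Tg-RKIP libraries and 22.56% ± 0.299 in those labelled Tg-GRK2 (SD, n = 3), a difference of -10.91 percentage points. The groups did not overlap, and the exact two-sided permutation test gave p = 0.1, the smallest value that 3 libraries against 3 allow. The FVB share was 23.08% ± 0.158. The 13 mitochondrially encoded protein genes were all lower, with a median of -1.33. The respiratory subunit mt-Nd5 was at 2557, 2675 and 2526 TPM against 8029, 8093 and 8089 TPM, a log2 fold change of -2.02 (SE 0.016). The mt-Atp6 gene of ATP synthase was at 32750, 33680 and 32450 TPM against 65840, 66230 and 67230 TPM, with reads of the overlapping mt-Atp8 not cleanly separable from it.

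The nuclear subunits of the respiratory chain were lower in 75 of 82 cases and higher in 3, with a median of -0.40. That median shrank to -0.03 with library-size scaling and to -0.003 by TPM, so a lower level of the list as a whole depended on the normalisation. Some subunits were lower in TPM as well: Ndufs1 of complex I was at 285, 282 and 282 TPM against 494, 499 and 495 TPM. Sdha of complex II was at 413, 410.0 and 406 TPM against 692, 703 and 687 TPM, and Uqcrfs1 of complex III at 504, 492 and 496 TPM against 793, 810.1 and 786 TPM. Mitochondrial ribosomal proteins were lower in 56 of 75 cases and higher in 8, with a median of -0.31 that turned to 0.07 with library-size scaling and to 0.08 by TPM. Mrps6 stood against the list, at 162, 169 and 163 TPM in Tg-RKIP against 72.7, 68.7 and 70.1 TPM.

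Cytosolic ribosomal proteins were higher in 76 of 80 cases and lower in 1, with a median of 0.43. With the length and GC trends removed, 59 were higher and 7 lower, at a median of 0.16, so part of the shift moved with these trends. Rpl3, a core protein of the large subunit, was at 471, 457 and 474 TPM against 185, 185 and 181 TPM, a log2 fold change of 0.92 (SE 0.021). Its muscle-restricted paralog Rpl3l was the exception, at 86.4, 83.5 and 86.9 TPM against 152, 152 and 156 TPM, a log2 fold change of -1.22 (SE 0.027). The paralogs thus moved in opposite directions, although similar pseudogenes make the level of Rpl3 uncertain. Proteasome genes were higher in 26 of 34 cases and lower in 4, with a median of 0.13, and in 16 and 11 cases once the trends were removed.

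**Figure D3:**
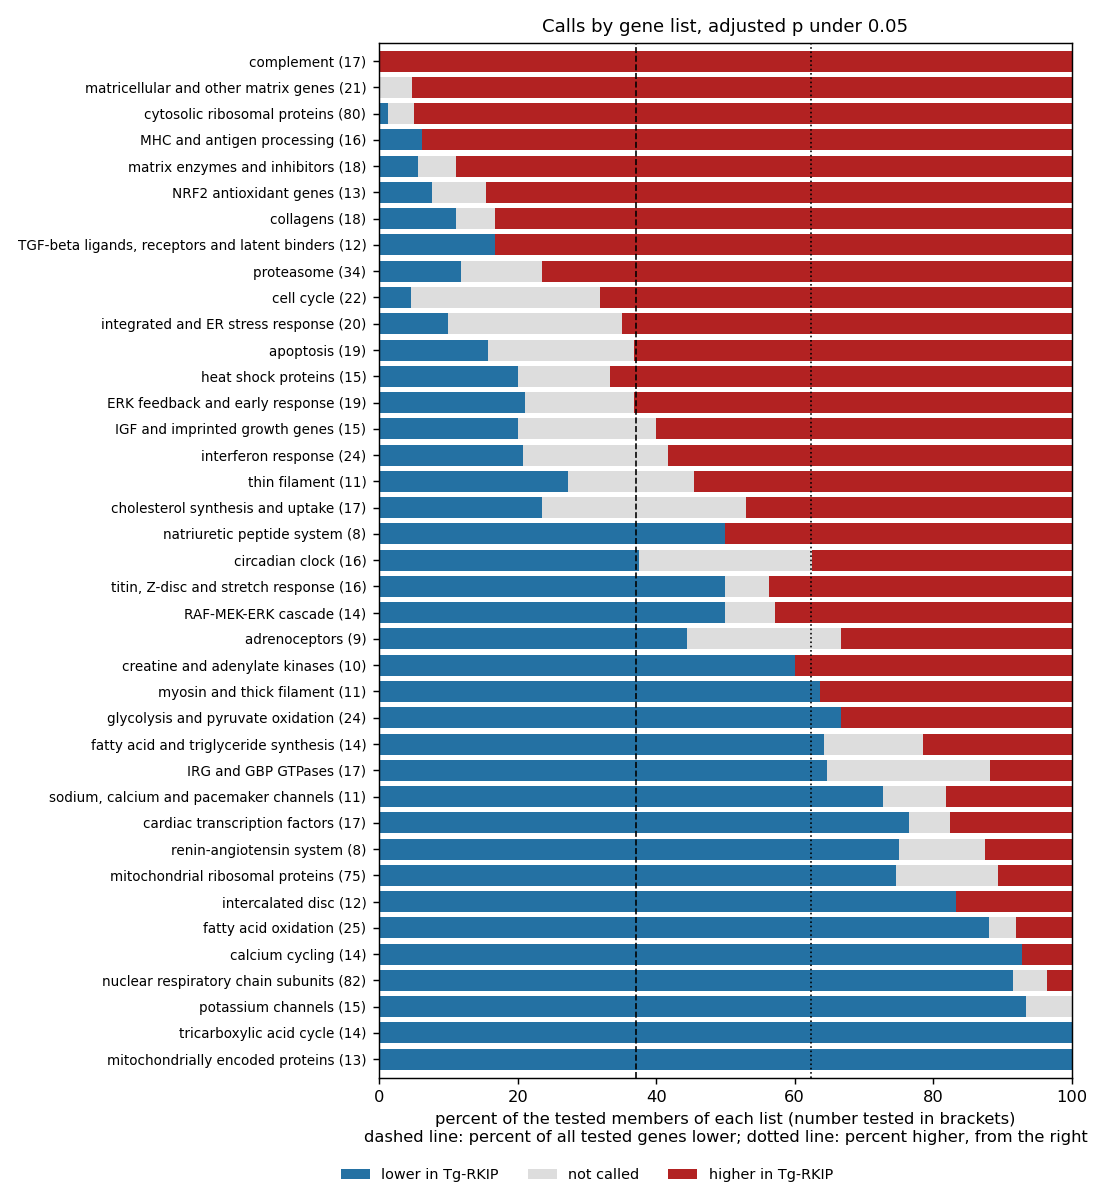
Share of the tested members of each gene list that were higher (red), lower (blue) or not called (grey) in Tg-RKIP at an adjusted p under 0.05, with the number tested in brackets. The dashed line marks the 37.1% of all tested genes that were lower and the dotted line, read from the right, the 37.7% that were higher.

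**Figure D4:**
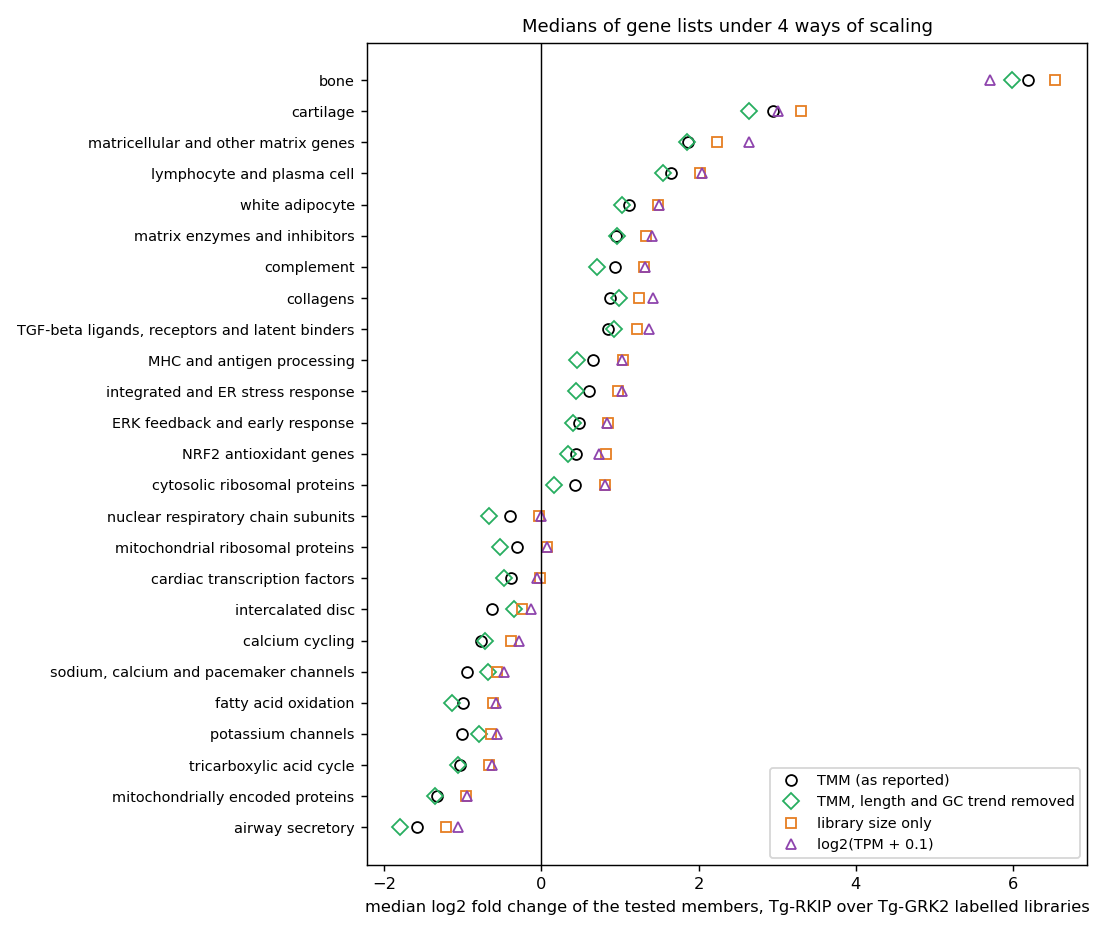
Median log2 fold change Tg-RKIP over Tg-GRK2 of 25 gene and marker lists under 4 ways of scaling, with 1 symbol per list and scaling. Lists of matrix, lymphocyte, complement and MHC genes lay above 0 and calcium, channel and fuel oxidation lists below 0 with each scaling. Cartilage and bone lists also lay above 0, but hold 3 and 6 genes at the floor that could only be higher, drawn at fitted values. The lymphocyte list holds 1 such gene. The IRG and GBP list, not drawn, lay below 0 with each scaling. The medians of nuclear respiratory, mitochondrial ribosomal and cardiac transcription factor lists moved to near 0 with library-size scaling and TPM.

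The extracellular matrix showed the opposite picture, with most of its genes higher in Tg-RKIP. Of the 21 matricellular and other non-collagen matrix genes, 20 were higher and 0 lower, with a median of 1.86, and of the 18 collagens, 15 were higher and 2 lower, with a median of 0.87. Col1a1, the main fibrillar collagen of scar tissue, was at 223, 218 and 219 TPM against 43.7, 46.0 and 43.2 TPM, a log2 fold change of 1.94 (SE 0.020, adjusted p = 5.29e-24). Its partner chain Col1a2 was at 318, 312 and 309.8 TPM against 81.9, 83.2 and 80.3 TPM, and Col3a1 was higher by 0.86. Both chains of type I collagen were far apart between the lines. Col8a2 and Col12a1, collagens of sheets and of fibril surfaces, were higher by 2.71 and 2.10.

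Matricellular proteins, which signal from the matrix, led this group. Ccn2, the connective tissue growth factor, was at 836, 822 and 842 TPM against 128, 127 and 128 TPM, a log2 fold change of 2.33 (SE 0.019, adjusted p = 2.09e-25). Ccn5, of the same family, was at 144, 139 and 144 TPM against 6.26, 6.51 and 6.51 TPM, a log2 fold change of 4.09 (SE 0.040). Fn1, fibronectin, was at 184, 186 and 186 TPM against 28.9, 30.9 and 28.2 TPM, a log2 fold change of 1.77 (SE 0.022) by normalised counts. Of its reads, 9975, 12829 and 9746 in Tg-RKIP were counted on the intron-retaining ENSMUST00000185408, against 427, 349 and 539. The protein-coding ENSMUST00000190780 of Fn1 ran the other way, with 5, 14 and 1 reads against 1157, 1378 and 1343. The reads of Fn1 were thus assigned to different transcripts in the lines, mostly to the intron-retaining form in Tg-RKIP. How reads shared by these overlapping transcripts were divided is not given. The assignment also varied within FVB, where ENSMUST00000190780 held 163, 747 and 922 reads, so transcript usage itself is uncertain. Dcn, the collagen-binding proteoglycan decorin, had the highest level of the list, at 1387 ± 3.71 against 698 ± 4.16 TPM (SD, n = 3).

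Of the 18 matrix enzymes and inhibitors, 16 were higher and 1 lower, with a median of 0.96. Timp1, an inhibitor of metalloproteinases, was at 35.0, 34.1 and 36.7 TPM against 3.10, 3.29 and 3.70 TPM, a log2 fold change of 3.00 (SE 0.092). P4ha3, a prolyl hydroxylase of collagen, was higher by 3.50, and Mmp3, a metalloproteinase, by 3.15. Of the 12 genes of TGF-beta ligands, receptors and latent binders, 10 were higher and 2 lower. Tgfb3 was at 37.6, 36.6 and 39.1 TPM against 9.69, 9.80 and 9.73 TPM, while Tgfb1 moved less, at 29.4, 30.5 and 31.2 TPM against 15.1, 15.9 and 15.5 TPM. Ltbp4, which tethers latent TGF-beta to the matrix, was at 498, 496 and 495 TPM against 162, 162 and 154 TPM. Inhbb, an activin subunit, was higher by 1.67 on the log2 scale (SE 0.13). Ltbp2, counted among the matricellular and other matrix genes and not in this list, was higher by 3.16 (SE 0.052).

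Markers of fibroblasts were mostly higher as well, but the lists share genes. Dcn and Lum were also counted among the matrix genes. Dcn alone held 1387 TPM of the fibroblast sum in Tg-RKIP and 698 TPM in the libraries labelled Tg-GRK2 (means). Of the 10 fibroblast genes, 7 were higher and 1 lower, and their summed level was 3782 to 3803 TPM in Tg-RKIP, 2021 to 2077 TPM in the libraries labelled Tg-GRK2 and 1818 to 1838 TPM in FVB. Tcf21, a transcription factor of resident cardiac fibroblasts, was at 41.0, 40.4 and 42.2 TPM against 13.2, 13.8 and 13.7 TPM, and Mfap5, a microfibril protein, was higher by 1.57. The part of fibroblast number in the matrix result was not tested, and in whole hearts a larger number of cells of a type and more RNA per cell cannot be told apart. Of the 11 cardiomyocyte markers, 7 were lower and 2 higher, with a median of -0.48. They held a summed level of 64210 to 65650 TPM in Tg-RKIP libraries and 63960 to 66010 TPM in those labelled Tg-GRK2, so this sum overlapped between the lines and was high in each library of this heart tissue.

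Many genes of cartilage and bone were higher in Tg-RKIP. Of the 14 tested cartilage genes, 11 were higher and 1 lower, and of the 10 bone genes 10 were higher. Of these, 3 cartilage and 6 bone genes were at or under 3 reads in every library labelled Tg-GRK2 and passed the filter only through the Tg-RKIP libraries, so they could only be higher, and the counts are not support for a direction. The median was 2.95 for cartilage, or 2.74 with the genes at the floor set to their bound, and 6.18 for bone, or 3.35 with such genes set to their bound. Comp, the cartilage oligomeric matrix protein, was at 295, 290.1 and 296 TPM against 10.1, 10.2 and 10.2 TPM, a log2 fold change of 4.33 (SE 0.027, adjusted p = 3.49e-27). Acan, the large proteoglycan of cartilage, was at 2.37, 2.76 and 2.93 TPM against 0.0502, 0.220 and 0.123 TPM, a log2 fold change of 4.12 (SE 0.19). Sp7, a transcription factor of osteoblasts, was at 1.10, 0.925 and 1.05 TPM and at least 15.6-fold higher. Bglap, which encodes osteocalcin, was at least 18.9-fold higher, with Bglap2 as a near-identical copy. The summed cartilage level was 379.4 to 386.9 TPM in Tg-RKIP, against 21.53 to 24.06 TPM and, in FVB, 22.36 to 24.15 TPM. The 3 Tg-RKIP libraries agreed closely in these genes, and the part of a common source of tissue or RNA was not tested.

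Genes of adrenergic signalling changed in different directions. Of the 9 adrenoceptors, 3 were higher and 4 lower, close to the share of all genes, and the list's median of -0.31 turned to 0.06 with library-size scaling. The alpha1-adrenoceptors were lower: Adra1a was at 1.64, 1.92 and 1.60 TPM against 10.5, 9.45 and 9.60 TPM, a log2 fold change of -3.00 (SE 0.075, adjusted p = 5.80e-18). Adra1b was at 7.87, 6.81 and 7.80 TPM against 20.8, 20.2 and 20.3 TPM, and Adra1d was lower by 1.68. The groups did not overlap in these 3 genes, as in 76.6% of all genes tested. Adrb1, the main beta-adrenoceptor of the heart, was at 10.4 ± 0.0864 TPM against 11.2 ± 0.295 TPM (SD, n = 3), a log2 fold change of -0.49 (SE 0.048, adjusted p = 1.40e-08), and lost its call by limma on TPM. Adrb3 was at 1.58, 1.26 and 1.39 TPM against 0.812, 1.09 and 0.851 TPM, with a log2 fold change of 0.52 (SE 0.18, adjusted p = 0.015) that missed the threshold without Tg-GRK2 replicate 3, at 0.42.

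Of the 7 tested kinases and arrestins that switch such receptors off, 3 were higher and 1 lower. The shares over all genes were 37.7% and 37.1%. Grk5 was at 24.4, 24.7 and 24.8 TPM in Tg-RKIP against 8.38, 8.90 and 8.75 TPM, a log2 fold change of 1.13 (SE 0.031, adjusted p = 2.98e-17). Grk3 was lower, at 4.06, 4.17 and 3.99 TPM against 5.62, 6.32 and 6.11 TPM, a log2 fold change of -0.92 (SE 0.051). Arrb2, which encodes beta-arrestin 2, was higher by 0.74. Grk5 and Grk3 passed the test and Grk2 did not, but the difference between these kinases was not itself tested.

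In the kinase cascade that RKIP restrains, 6 of 14 genes were higher and 7 lower, with a median of -0.09, near the shares of all genes. With library-size scaling 8 were higher and 3 lower (median 0.29), and by TPM 9 were higher and 3 lower (median 0.42). Mapk3, which encodes ERK1, was at 73.3, 69.6 and 73.9 TPM against 36.5, 36.3 and 35.6 TPM, a log2 fold change of 0.61 (SE 0.034). Of the 19 feedback and early response genes of ERK signalling, 12 were higher and 4 lower, with a median of 0.47. Dusp4, a phosphatase induced by ERK, was at 9.12, 9.63 and 9.82 TPM against 1.79, 1.80 and 1.28 TPM, a log2 fold change of 2.19 (SE 0.098, adjusted p = 7.38e-14). Phlda1 was at 97.5, 99.3 and 97.0 TPM against 22.2, 22.1 and 21.3 TPM. Etv4, a transcription factor downstream of ERK, was higher by 1.82, with a wide spread in Tg-RKIP of 1.20 to 2.56 TPM. These are transcript levels and do not measure kinase activity.

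In the renin-angiotensin system, 6 of 8 genes were lower and 1 higher, with a median of -0.53. Ace, the angiotensin-converting enzyme, was the higher one, at 97.4, 96.7 and 96.9 TPM against 34.2, 35.0 and 35.5 TPM, a log2 fold change of 0.95 (SE 0.023, adjusted p = 3.17e-18). Agtr1a, the main angiotensin II receptor of the heart, was at 16.8, 18.0 and 16.0 TPM against 21.1, 19.3 and 19.9 TPM, a log2 fold change of -0.60 (SE 0.051). Nr3c2, the mineralocorticoid receptor, was lower by 0.89. The study presents levels of 23 genes, of which 17 were higher in Tg-RKIP hearts here and 3 lower. The choice of these genes by the study included the Tg-RKIP libraries, so the count is not independent evidence of a direction.

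Immune genes were mostly higher in Tg-RKIP. Of the 16 genes of MHC and antigen processing, 15 were higher and 1 lower, with a median of 0.66. Cd74, the invariant chain of MHC class II, was at 383, 371 and 381 TPM against 87.0, 86.4 and 90.2 TPM, a log2 fold change of 1.73 (SE 0.026, adjusted p = 1.65e-21), with an FVB mean of 202 TPM. H2-Aa was at 289.6, 280.1 and 286 TPM against 60.3, 61.0 and 60.3 TPM, with an FVB mean of 165 TPM. For these class II genes the FVB level lay between the lines. B2m, the light chain of MHC class I, was at 603, 629 and 614 TPM against 301, 307 and 315 TPM, beside 575 TPM in FVB, so that here the libraries labelled Tg-GRK2 were the ones that stood apart.

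All 17 complement genes were higher, with a median of 0.94. C4b was at 131, 133 and 134 TPM against 25.3, 23.8 and 22.6 TPM, a log2 fold change of 1.69 (SE 0.028). Serping1, the inhibitor of C1, was at 437, 441 and 439 TPM against 163, 162 and 161 TPM. C6 and C2 were higher by 1.86 and 1.17 on the log2 scale. Of the 15 macrophage markers, 13 were higher and 1 lower, with summed levels of 258.7 to 272.8 TPM against 128.0 to 133.5 TPM. Csf1r, the receptor for the macrophage growth factor, was higher by 0.64, whereas Lgals3, Gpnmb and Trem2, genes of lipid-laden and scar macrophages, were higher by 2.83, 2.41 and 1.79. Lymphocyte and plasma cell markers were higher in 9 of 11 cases and lower in 0. Of these 11, 1 was at or under 3 reads in every library labelled Tg-GRK2 and could only be higher. The summed level of the list was 275.4 to 283.9 TPM against 67.1 to 69.94 TPM, and 25.46 to 28.05 TPM in FVB. Igkc, the kappa light chain constant region, was at 234, 228 and 238 TPM against 49.6, 48.2 and 48.8 TPM, and Jchain was higher by 1.65 and Cd79a by 1.95.

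The interferon-inducible IRG and GBP GTPases act against intracellular microbes. Of 17 tested, 11 were lower in Tg-RKIP and 2 higher, with a median of -0.47. With library-size scaling 8 were lower and 5 higher (median -0.10), and by TPM 4 were lower and 3 higher (median -0.13). Gbp10, whose near-identical relatives make its level uncertain, was at 1.30, 1.19 and 2.26 TPM against 5.58, 4.84 and 5.63 TPM, with an FVB mean of 10.9 TPM. Tgtp1 was at 1.31, 0.412 and 0.556 TPM against 3.21, 0.777 and 2.18 TPM, so the groups overlapped, although edgeR gave an adjusted p of 0.000817. The summed level of the list was 104.1 to 105.9 TPM in Tg-RKIP libraries and 101.3 to 102.2 TPM in those labelled Tg-GRK2, both well under the 260.7 to 263.5 TPM of FVB. Of the 24 other interferon response genes, 14 were higher and 5 lower.

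Stress genes were higher in several lists. Of the 20 tested genes of the integrated and endoplasmic reticulum stress response, 13 were higher and 2 lower, with a median of 0.60. Gdf15, a circulating stress hormone, was at 38.0, 40.0 and 42.3 TPM against 2.29, 3.15 and 2.37 TPM, a log2 fold change of 3.57 (SE 0.087, adjusted p = 3.52e-18). Nupr1, a stress-induced nuclear protein, was at 63.1 ± 3.36 TPM against 9.89 ± 0.713 TPM, and Mthfd2, a folate enzyme of mitochondria, was higher by 1.70. These were the genes of the list with the largest changes, and FVB lay near the libraries labelled Tg-GRK2. Of the 13 NRF2 antioxidant genes, 11 were higher and 1 lower, led by Hmox1, the heme oxygenase, at 33.8, 32.7 and 33.7 TPM against 7.30, 7.83 and 6.57 TPM. Osgin1 and G6pdx were higher by 0.80 and 0.77.

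Apoptosis genes were higher in 12 of 19 cases and lower in 3, with a median of 0.37. Bid, a proapoptotic protein of the BCL2 family, was at 3.77, 3.91 and 3.80 TPM against 0.748, 0.824 and 0.874 TPM, a log2 fold change of 1.86 (SE 0.14). Pmaip1, of the same family, was higher by 2.20, and Bcl2, which protects against apoptosis, was higher as well, by 0.97. Heat shock proteins were higher in 10 of 15 cases and lower in 3. Hsp90aa1 and Hspb1, a chaperone of the cytosol and a small heat shock protein, were higher by 1.02 and 0.95, whereas Hspd1, the chaperonin of mitochondria, was lower by 0.89. Cell cycle genes were higher in 15 of 22 cases and lower in 1, with Ccnd2 at 57.2, 57.2 and 53.9 TPM against 23.5, 23.6 and 24.1 TPM and Ccnb2, a cyclin of mitosis, higher by 1.00. Of the insulin-like growth factor and imprinted growth genes, 9 of 15 were higher and 3 lower. The binding proteins Igfbp3, Igfbp4 and Igfbp7 were higher by 1.70, 1.46 and 1.44.

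Several cell types other than heart muscle differed between the lines. Of the 12 white adipocyte markers, 11 were higher and 1 lower in Tg-RKIP, with summed levels of 280.3 to 290.3 TPM against 118.8 to 121.3 TPM and 98.67 to 105.1 TPM in FVB. Adipoq, the fat cell hormone adiponectin, was at 26.8, 29.0 and 28.8 TPM against 5.80, 6.58 and 6.63 TPM, a log2 fold change of 1.85 (SE 0.071). Cfd, also called adipsin, was at 92.3, 92.8 and 95.3 TPM against 8.53, 9.72 and 9.71 TPM, and Cidec, a lipid droplet protein, and Retn, resistin, were higher by 1.66 and 1.64. Ucp1, the uncoupling protein of brown fat, was at 14.0, 13.2 and 13.1 TPM against 6.61, 6.17 and 5.25 TPM, beside 1.18 TPM in FVB, and Dio2, which activates thyroid hormone in brown fat, was higher by 1.44. Of the 5 brown adipocyte markers tested, 3 were higher and 2 lower, beside 37.7% and 37.1% of all genes. The lower ones were Cox8b and Ebf2, with log2 fold changes of -0.15 and -0.18. Adrb3, the adrenoceptor of fat cells, was also higher, as were most but not all of the white and brown fat markers. The part of these markers in the change of Adrb3 was not tested.

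Secretory genes of the airway epithelium were found in both transgenic lines. Scgb1a1, the secretoglobin of club cells, was at 48.7, 49.5 and 50.1 TPM in Tg-RKIP and at 132, 125 and 126 TPM in the libraries labelled Tg-GRK2, and was listed at 0 in the 3 FVB libraries. All 8 genes of the list were lower in Tg-RKIP, with Bpifa1 at 29.4, 29.5 and 32.6 TPM against 44.3, 42.8 and 42.8 TPM. Cyp2f2, a cytochrome of club cells, was at 3.01, 2.90 and 3.91 TPM against 8.80, 9.06 and 9.28 TPM, and Scgb3a2 was lower by 1.46. The remaining members, Muc5b, Bpifb1, Reg3g and Scgb3a1, were lower by between 0.96 and 3.36. The summed level was 96.78 to 103.0 TPM in Tg-RKIP, 205.0 to 213.6 TPM in the libraries labelled Tg-GRK2 and 0.4786 to 0.8218 TPM in FVB. Both lines thus held airway transcripts that FVB hearts nearly lacked, each line at its own level, and the part of these in other results was not tested. Of the alveolar markers, only 2 of 8 passed the filter, of which 1 was higher and 1 lower. The higher one was Napsa, a protease that processes surfactant, with a log2 fold change of 2.93 at 3.10, 2.50 and 2.89 TPM.

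Of the 6 red blood cell genes tested, 4 were higher, 1 lower and 1 not called. Hba-a1, an alpha-globin gene, was at 1417, 1343 and 1451 TPM in Tg-RKIP against 634, 646 and 613 TPM, beside 267 TPM in FVB, and Hbb-bs, a beta-globin gene, was at 1284, 1242 and 1314 TPM against 678, 689 and 672 TPM. Hba-a1 and Hba-a2 are near-identical copies, so their reads cannot be told apart with certainty. Smooth muscle and pericyte markers were higher in 7 of 10 cases and lower in 3, led by Acta2, the smooth muscle actin, at 417, 428 and 414 TPM against 129.7, 130.4 and 126 TPM. Tagln and Cnn1, which bind actin in smooth muscle, were higher by 1.47 and 1.28. Endothelial markers were divided, with 7 of 12 higher and 5 lower, and their median of 0.18 turned to -0.10 with the length and GC trends removed. Emcn, a mucin of capillary and venous endothelium, was at 121, 122 and 124 TPM against 48.0, 50.0 and 49.5 TPM, while Kdr, the receptor of vascular endothelial growth factor, was at 29.4, 29.9 and 28.6 TPM against 46.1, 46.1 and 45.6 TPM. Of the 6 tested markers of nerve and Schwann cells, 3 were higher, 1 lower and 2 not called. Their log2 fold changes ran from -1.04 to 2.78, with a median of 0.38. Among the higher ones, S100b, a calcium-binding protein of glia, was at 14.1, 13.1 and 13.2 TPM against 1.46, 1.66 and 1.70 TPM, a log2 fold change of 2.69 (SE 0.10).

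**Figure D5:**
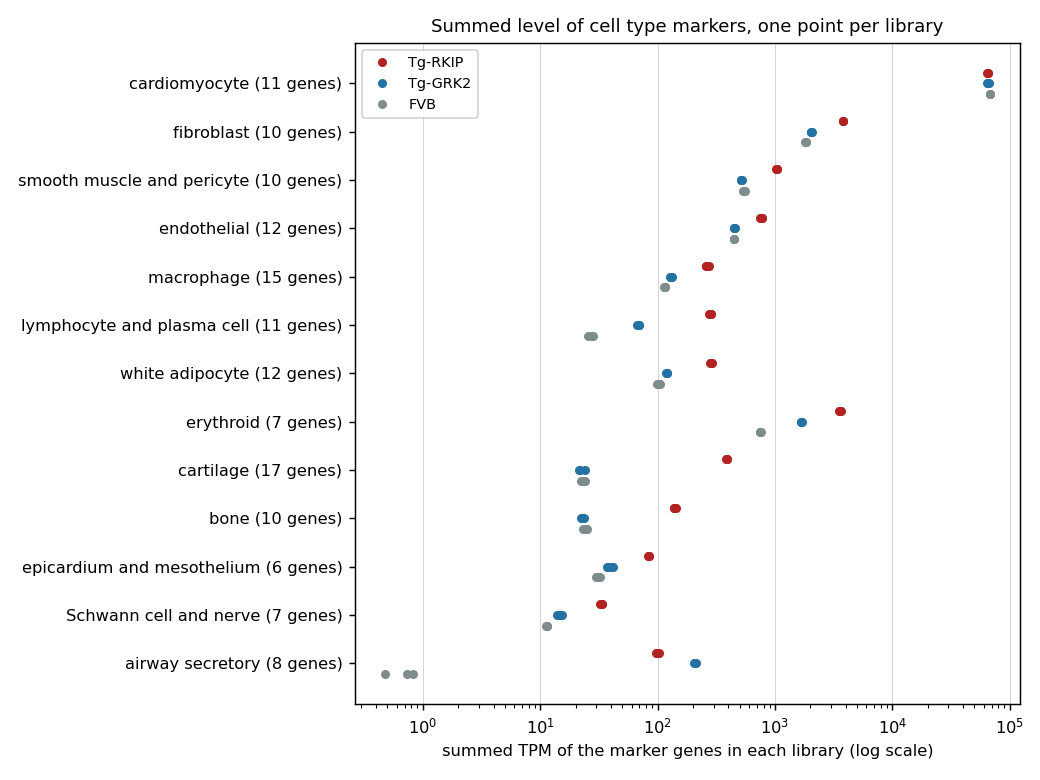
Summed TPM of marker lists in each library of the Tg-RKIP, Tg-GRK2 and FVB groups, on a log axis, with 1 point per library. Cartilage, bone, lymphocyte and adipocyte sums were highest in Tg-RKIP, airway secretory sums were highest in the libraries labelled Tg-GRK2, and cardiomyocyte sums overlapped between the transgenic lines.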

How the data were processed

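Fragmented mRNA of whole hearts was sequenced as single 50-base reads. The authors deposited read counts per transcript, whole numbers without normalization, for 127558 Ensembl transcripts, and TPM values per transcript, which were recomputed from counts and lengths to within 5.5e-06. The submitters' processing notes name the build GRCm39. The aligner, the counter, strandedness and the division of shared reads are not given in the sources used here.

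Transcript rows were summed by gene name (41710 names). Counts of the 3 Tg-RKIP and 3 Tg-GRK2 libraries were compared with edgeR 4.0.16 in R 4.3.3 (TMM, filterByExpr, glmQLFit, glmQLFTest), with Benjamini-Hochberg adjustment over 15374 genes and a threshold of 0.05. Fold changes are of TMM-normalised counts, and levels are TPM. Lower bounds use a floor of 3 reads per library for genes at or under it in a whole group. Floors cover counting error only. Each pair of libraries differed by more than sampling noise, and none were identical. The squared spread of a pair, relative to counting noise alone, was only 1.27 to 1.48 within groups and 26.9 to 30.1 between groups. Fitted within a group, the biological coefficient of variation was 1.88% for Tg-RKIP and 3.66% for Tg-GRK2. The source of this close agreement was not tested, and the small p-values rest on it.

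Members, gene lists and tests were chosen with earlier results of these data known. Named genes were the targeted genes and Pbp2, the 12 highest and 12 lowest fold changes (adjusted p under 0.05, at least 100 mean reads in the higher group, no overlap, no clone or model name), and, per list, the gene with the highest TPM and the 3 largest changes with at least 50 reads. All members of lists of at most 9 genes and the genes whose levels the paper presents could also be named. Not every gene the rule allows is described. The gene 9930111J21Rik1 has a name ending in Rik1 and so was not removed by the rule on clone names.

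Alternatives were other normalizations, DESeq2 1.42.0, other filters, all 9 libraries in the fit, the replicate number as a block, each library left out, limma 3.58.1 on log2 TPM, with 0.1 or 1 added, for genes reaching 1 TPM in 3 libraries or more, a tested fold of 1.5, and the most abundant transcript in place of the gene sum. Removal of the length and GC trend was added after seeing the data, with GC content from GENCODE M21 for 97.8% of the genes tested. Tested on simulated data of this comparison, in which 193 of 15129 tested genes were changed, edgeR found 92.2% of these, with 16 false calls among 194. Far fewer genes were changed in the simulation than were called in the data, so the scaling was not tested by it. Some genes are not reported here.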

Additional observations from a re-analysis of the deposited data

How the results depend on the processing

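The main counts were 5803 genes higher and 5702 lower in Tg-RKIP. Scaled to library size only, 9618 genes were higher and 2825 lower, and 2759 and 494 by at least 1 on the log2 scale. By limma, 2239 genes were lower on log2(TPM + 0.1) and 2244 on log2(TPM + 1), and 359 and 237 of these by at least 1 on the log2 scale. With a fold change of at least 1.5 tested, 2030 were higher and 1847 lower. The cause was not tested. With each library left out in turn, 5597 to 5681 genes were higher and 5512 to 5590 lower, with 1567 to 1623 and 1052 to 1084 by at least 1 on the log2 scale, and the difference in mitochondrial share was -10.993 to -10.7327 percentage points. Over the 13 protein genes alone that difference was -10.38. Grk2, not called in the main comparison, was called higher in Tg-RKIP with library-size scaling (0.33), by limma (0.42 and 0.40) and by its most abundant transcript (0.25), and turned positive, not called, without Tg-RKIP replicate 2, with a range of -0.0638 to 0.0022 over the libraries left out. With the length and GC trends removed, it was called lower (-0.19). With the replicate block, 5759 genes were higher and 5668 lower, and all 180 genes the text may name kept their call. Same-numbered libraries did not deviate together (correlations 0.0421, 0.00123 and 0.0241). With little spread beyond counting noise within a group, these values cannot show whether the numbers pair the hearts. With the tested fold, 13 of the 180 genes lost their call, and fewer did under each other alternative, of which the filter of 10 reads in every library left only 158 of them, limma 178 and TMM without mitochondrial genes, Pebp1 and Pbp2 174. The self-test recovered 88.1% of genes changed 1.5-fold, so smaller changes at low counts may be missed.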
